A study of Arabidopsis thaliana with 12 samples.

Results

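The response of hda9-1 seedlings to abscisic acid (ABA) was taken as the difference between 3 libraries made 4 h after a 50 µM ABA spray and 3 untreated libraries of the same genotype, 6 of the 12 libraries of the series, and it was described across all genes. The libraries were chosen by their titles and column names. The treatment field of the labels, which gives ABA for every hda9-1 library and none for every wild-type library, goes against the titles and was not used. All plants were Arabidopsis thaliana of the Col-0 accession, 2 to 3 weeks old, kept at 20 °C in days of 16 h light and 8 h darkness, on MS medium that held 1% sucrose. hda9-1 is a mutant allele of HDA9, which codes for a histone deacetylase, and the sprayed and unsprayed hda9-1 seedlings both carry it. Whole seedlings were used, so fewer cells of a type and less RNA per cell cannot be told apart. The wild-type libraries, 3 untreated and 3 sprayed, enter below where the 2 responses are compared. The columns call the untreated libraries 0 h and the sprayed ones 4 h, and no mock spray was analysed here, so ABA, 4 h of elapsed time and time of day cannot be told apart. The titles call the 3 libraries of a group biological replicates without saying whether they came from separate plates, and the p-values measure only the spread between these libraries.

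ABA is the hormone through which plants answer drought, salt and cold. It binds receptors of the PYR/PYL family, which then hold back clade A protein phosphatases (PP2Cs). SnRK2 kinases, freed from the phosphatases, phosphorylate bZIP factors of the ABF and ABI5 type, and these bind the ABA-responsive element (ABRE) of target promoters. HDA9 removes acetyl groups from histones, a step generally linked to lower transcription, and the study's title connects it with mitochondrial and chloroplast redox control during ABA signalling.

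HDA9 itself (AT3G44680, chromosome 3, 16226519 to 16230009, minus strand, 14 exons) stood at 5.87, 5.45 and 4.72 counts scaled to library size (CPM, scaled to 1000000 counts) in untreated hda9-1 and at 5.26, 4.78 and 5.45 CPM after ABA. The groups overlapped, and the log2 change was -0.05 with a standard error (SE) of 0.12 (edgeR adjusted p = 0.78). Wild-type libraries held 15.7 to 17.1 CPM, so reads of the gene remained in the mutant with and without the hormone. Coordinates are those of the TAIR10.1 annotation.

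The 6 hda9-1 libraries held 43977412 to 51054870 counts and 21510 to 21838 detected genes. They did not tilt alike with transcript length. Against the hda9-1 mean, the shortest genes (exons of up to 1273 nt) lay above the longest (2368 nt or more) by a median of 0.38 and 0.41 log2 in ABA replicates 1 and 3. ABA replicate 2 was at -0.16, inside the range of the untreated hda9-1 libraries (-0.24 to -0.15) and of wild type (-0.18 to 0.05). Treated replicates 1 and 3 therefore stand apart from the other 10 libraries in this measure, and the median SD within a group was 0.179 log2 in ABA-treated hda9-1 against 0.13 in untreated hda9-1. A correction removes, library by library, the dependence on exon length and base composition (GC) together. Lists and genes that move most under it are given below also after this correction, and without ABA replicate 2.

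**Figure D1:**
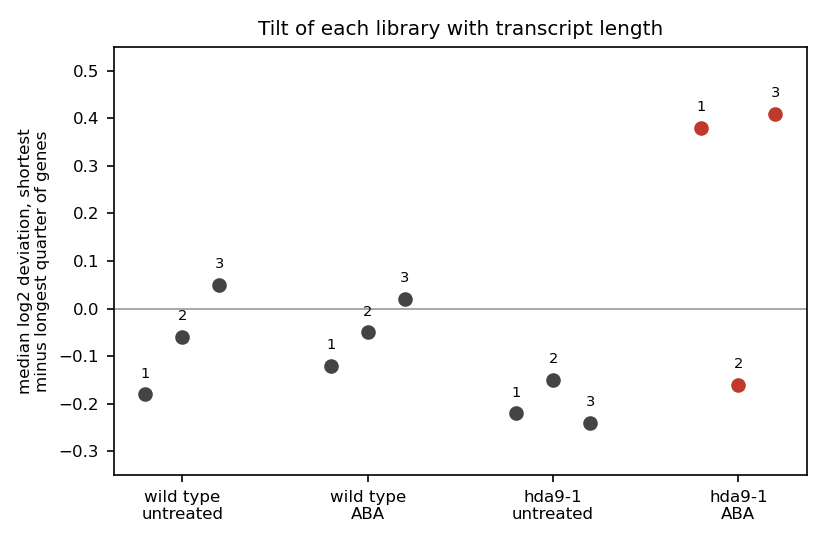
Median log2 deviation of genes with exons of up to 1273 nt minus that of genes with 2368 nt or more, 1 point per library, numbered by replicate, in the 4 groups. Points for ABA-treated hda9-1 replicates 1 and 3 lie at 0.38 and 0.41, and the point for replicate 2 lies at -0.16 among the other libraries.

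Of 20924 genes tested, 8767 (41.9%) passed an adjusted p below 0.05 in hda9-1, 4874 higher after ABA (23.3%) and 3893 lower (18.6%). Calls are from edgeR's quasi-likelihood test with Benjamini-Hochberg adjustment over all genes tested. Changes of at least 2-fold were more often up, with 1861 genes higher (8.89%) and 731 lower (3.49%), and at 10-fold or more there were 325 higher and 88 lower. With the length and GC trends removed the 2-fold sets were closer in size, at 1469 higher and 1007 lower. The split between higher and lower depended on the processing. With the length and GC trends removed together, 4008 genes were higher and 5074 lower, and 17 shared calls changed sign. With upper-quartile factors and no trend removed, 4298 were higher and 4855 lower. The part of length alone was not tested. Short genes carried much of the upward count, since 1659 of the 5211 shortest genes were higher and 353 lower, against 756 higher and 1606 lower of the 5202 longest. Of the calls, 6066 (69.2%) held when each of the 12 libraries was left out in turn, as did 88.7% of the 2-fold increases and 81.3% of the 2-fold decreases. The gene nearest inside the threshold was MAP65-4 (AT3G60840, log2 change -0.45, adjusted p = 0.04997) and the nearest outside was AT5G19050 (-0.21, adjusted p = 0.05006).

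The receptors fell while the phosphatases that they restrain rose. Of 10 PYR/PYL receptors tested, 6 were lower, 1 was higher and 3 did not pass, with a median log2 change of -0.47 against 0.013 over all genes. PYL6 (AT2G40330, chromosome 2, 16844588 to 16846194, minus strand, 1 exon) read 6.1, 9.49 and 5.44 CPM untreated and 0.231, 0 and 0.0221 CPM after ABA. No treated library came near an untreated one, and the log2 change was -6.40 ± 0.69 (SE, edgeR adjusted p = 1.7e-05). PYL4 (AT2G38310, chromosome 2, 16049918 to 16051356, plus strand) went from 31.5, 45.9 and 28.9 CPM to 3.85, 2.11 and 2.36 CPM, a log2 change of -3.68 ± 0.25 (edgeR adjusted p = 1.5e-07). PYL5 (AT5G05440) moved by -2.26 ± 0.30 log2, and PYR1 (AT4G17870), PYL1 (AT5G46790) and RCAR3 (AT5G53160) by -0.71, -0.40 and -0.54. PYL7 (AT4G01026) was the receptor that rose, by 0.55 ± 0.15 log2, from a mean of 8.16 ± 0.797 CPM to 11.9 ± 1.78 CPM (SD, n = 3). PYL2, PYL3 and RCAR1 gave log2 changes of 0.74, 1.96 and 0.11, which did not pass. With the trends removed 6 were again lower and 1 higher. PYL1 no longer passed without untreated replicate 1 or 2 or treated replicate 1 or 3, at -0.38, -0.39, -0.41 and -0.41.

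All 9 clade A phosphatases were higher, with a median log2 change of 3.86 and no overlap between treated and untreated libraries in any of them, which was the case for 46.7% of all genes tested. The 3 HAI genes, named for their strong induction by ABA, moved furthest. HAI3 (AT2G29380, chromosome 2, 12608675 to 12610350, plus strand, 3 exons) read 0, 0.046 and 0.0401 CPM untreated and 29.1, 30.2 and 25.1 CPM after ABA, a log2 change of 9.83 ± 0.36 (edgeR adjusted p = 1.4e-11) that rests on 4 untreated counts. HAI2 (AT1G07430) rose by 7.61 ± 0.28 log2 and HAI1 (AT5G59220) by 6.16 ± 0.28, the latter from 3.18, 2.11 and 4.24 CPM to 230, 222 and 234 CPM. ABI1 (AT4G26080), a phosphatase named for ABA-insensitive mutants, had 53.6, 47.7 and 48.1 CPM before and 383, 365 and 338 CPM after, a rise of 2.86 ± 0.09 log2. ABI2 (AT5G57050) rose by 3.86 ± 0.11, PP2CA (AT3G11410) by 3.20 ± 0.13, HAB1 (AT1G72770) by 2.51 ± 0.09 and HAB2 (AT1G17550) by 1.18 ± 0.10. AHG1 (AT5G51760), a phosphatase known from seeds, reached only 2.65 to 3.39 CPM.

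Among 8 SnRK2 kinases and ABA transcription factors tested, 6 were higher and none was lower, and with the trends removed SNRK2.3 was called lower at -0.31. OST1 (AT4G33950), the SnRK2 kinase of guard cells, rose from 17.7, 21.4 and 19.9 CPM to 45, 50.4 and 40.8 CPM, by 1.21 ± 0.12 log2, whereas SNRK2.2 and SNRK2.3 changed by -0.03 ± 0.07 and -0.16 ± 0.10 and were not called. The bZIP factors ABF2 (AT1G45249) and ABF3 (AT4G34000) gained 2.61 ± 0.12 and 2.4 ± 0.09 log2. ABF1 and ABF4 gained 0.78 and 0.45. ABI5 (AT2G36270), the factor that holds germinating seedlings in arrest, went from 0.951, 1.2 and 2.09 CPM to 9.18, 7.21 and 8.82 CPM, 2.57 ± 0.24 log2 higher. The 4 ABI5-binding proteins, which restrain ABI5, all rose. AFP1 (AT1G69260) stood 4.03 ± 0.13 log2 higher and AFP3 (AT3G29575) 3.76 ± 0.12, and AFP2 (AT1G13740) and TMAC2 (AT3G02140) 1.20 and 1.59.

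Enzymes that make ABA and enzymes that break it down were both higher. In the synthesis list 6 of 9 tested genes rose and none fell. NCED3 (AT3G14440), which makes the committed cleavage of carotenoids, had 7.91, 6.34 and 5.06 CPM untreated and 17.1, 27.6 and 18.6 CPM after ABA, a rise of 1.71 ± 0.25 log2. The groups did not overlap, and ABA1 (AT5G67030), zeaxanthin epoxidase, rose by 1.48 ± 0.13 and AAO3 (AT2G27150), the last oxidase of the route, by 0.89 ± 0.08. ABA4 (AT1G67080), of the neoxanthin step, was called at 0.52 ± 0.11, but its log2 change was -0.03 once the trends were removed. The list of ABA breakdown and transport genes had 6 of 7 members higher and a median of 2.76, against 0.89 for synthesis. All 4 of the CYP707A hydroxylases that inactivate ABA rose. CYP707A1 (AT4G19230) went from 3.1, 2.32 and 3.03 CPM to 73.1, 80 and 68.3 CPM, by 4.71 ± 0.14 log2 (edgeR adjusted p = 1.3e-12), and CYP707A2 (AT2G29090), CYP707A4 (AT3G19270) and CYP707A3 (AT5G45340) by 4.93, 3.57 and 2.76. The glucosyltransferase UGT71B6 (AT3G21780) rose by 1.32 ± 0.33 and the exporter ABCG25 (AT1G71960) by 1.52 ± 0.09, and the importer ABCG40 (AT1G15520) gave -0.17 ± 0.25.

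**Figure D2:**
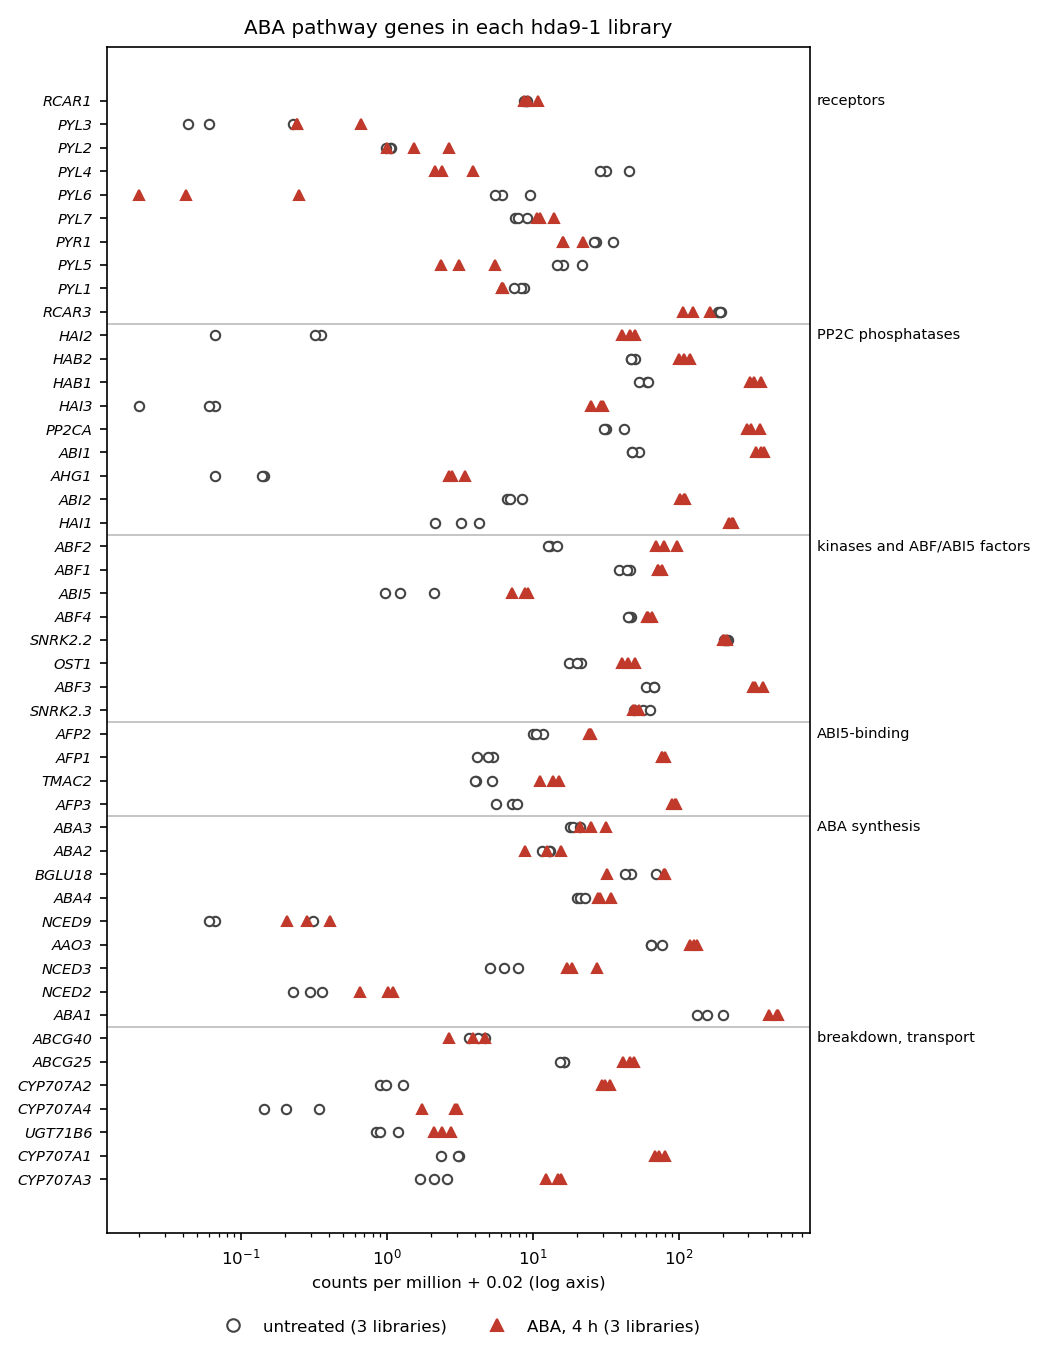
Levels of 47 ABA pathway genes in each hda9-1 library, in CPM plus 0.02 on a log axis, with open circles for the 3 untreated and triangles for the 3 ABA-treated libraries. Treated libraries lie to the right for all 9 phosphatases and to the left for PYL4, PYL5 and PYL6.

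Genes of protective proteins were prominent among the large increases. Late embryogenesis abundant (LEA) proteins and dehydrins are hydrophilic proteins that accumulate in drying seeds and stressed leaves, and 19 of 20 tested members were higher, with a median log2 change of 5.04. LEA7 (AT1G52690, chromosome 1, 19619724 to 19621534, plus strand, 3 exons) read 0.062, 0 and 0.582 CPM untreated and 251, 184 and 244 CPM after ABA. LEA4-5 (AT5G06760, chromosome 5, 2089445 to 2090430, minus strand) read 0.062, 0.046 and 0.161 CPM and then 91.2, 63.2 and 95 CPM. Both genes were close to absent in every untreated library, and their log2 changes were 9.96 ± 0.58 and 9.78 ± 0.30 (edgeR adjusted p = 8.7e-07 and 1.2e-11). The dehydrin RAB18 (AT5G66400) rose from 2.09, 1.54 and 1.69 CPM to 129, 114 and 162 CPM, by 6.24 ± 0.19, and LTI30 (AT3G50970) by 5.22 ± 0.27, or 4.61 with the trends removed. ERD10 (AT1G20450) and COR47 (AT1G20440) began at 46.3 to 61.4 and 201 to 258 CPM and rose by 3.66 ± 0.12 and 2.60 ± 0.13. SAG21 (AT4G02380), the member that did not pass, had 226, 225 and 256 CPM before and 526, 264 and 329 CPM after.

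Some members had almost no untreated reads. LEA18 (AT2G35300) and EM1 (AT3G51810) had 0 counts in all 3 untreated libraries and 664 and 232 counts over the treated ones, at least 227-fold and at least 79.4-fold higher against a floor of 3 counts over the group. GEA6 (AT2G40170), an Em protein of embryos, had 2 untreated counts and 1214 treated ones, a ratio of 623 with a 95% Poisson interval of 172 to 5150 that covers counting error only. With genes at 0 set to their bound, the list median stayed at 5.04. KIN1 (AT5G15960) and KIN2 (AT5G15970) are near-identical neighbours whose reads the counting could have split, and KIN2 had 22.3, 17.7 and 15.3 CPM before and 1990, 1030 and 2450 CPM after. In both KIN genes ABA replicate 2 was the lowest treated library, and their log2 changes were 7.34 and 6.63 as counted and 6.63 and 5.94 with the trends removed.

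All 8 genes of the desiccation and cold list rose, with a median of 4.97. LTI65 (AT5G52300, also RD29B, chromosome 5, 21237021 to 21239531, plus strand, 5 exons) went from 0.351, 0.23 and 0.502 CPM to 110, 134 and 121 CPM, 8.36 ± 0.22 log2 higher (edgeR adjusted p = 1.1e-12). Its neighbour LTI78 (AT5G52310, also RD29A) went from 22.3, 16.2 and 13 CPM to 1030, 974 and 1070 CPM, 5.90 ± 0.18 higher. RD20 (AT2G33380), a caleosin of lipid droplets, rose by 7.60 ± 0.30, the NAC factor RD26 (AT4G27410) by 4.04 ± 0.15, RD22 (AT5G25610) by 3.23 ± 0.13 and the aldehyde dehydrogenase ALDH7B4 (AT1G54100) by 1.53 ± 0.10. TSPO (AT2G47770), a membrane protein of the secretory pathway that is made under stress, had 2 untreated counts and 4027 treated ones, a ratio of 2070 with a 95% Poisson interval of 572 to 17100.

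Outside these lists the largest increases came from genes of mixed function. CSLG2 (AT4G24000), a cellulose synthase-like gene, and AT5G24080, a protein kinase gene, had 0 untreated counts and 1386 and 1111 treated ones, at least 474-fold and at least 380-fold higher. BGLU24 (AT5G28510, chromosome 5, 10480757 to 10484073, minus strand, 13 exons), a beta-glucosidase, read 0.103, 0.184 and 0.0401 CPM untreated and 89.2, 94.7 and 96.1 CPM after ABA, a log2 change of 9.75 ± 0.21. The 3 treated libraries lay close together and far above the untreated ones (edgeR adjusted p = 5.6e-14). AT3G17520, another LEA gene, AT3G03341, a cold-regulated gene, AT5G50360, with a von Willebrand factor A domain, and AT5G28520, a lectin gene, rose by 8.62, 9.01, 9.40 and 8.69, and AT3G03341 by 8.26 with the trends removed. By gain in CPM the leaders were ADC2 (AT4G34710), arginine decarboxylase of polyamine synthesis, with a mean gain of 1980 CPM, and KIN2 with 1800 CPM. COR47, COR413-PM1 (AT2G15970), DOX1 (AT3G01420), LTI78, SIP3 (AT4G30960) and AT4G23670 gained 848 to 1210 CPM each.

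Promoters were read for the ABRE core, ACGTG on either strand, in the 300 bases before the annotated gene start. The windows below belong to induced genes described in the text, picked by hand and not the largest increases in order, and to PYL6, the receptor that fell most. BGLU24 and TSPO are shown because they rose strongly and their windows hold no core. Each is written 5' to 3' on the strand of the gene, with the ABRE core in capitals.
LEA7: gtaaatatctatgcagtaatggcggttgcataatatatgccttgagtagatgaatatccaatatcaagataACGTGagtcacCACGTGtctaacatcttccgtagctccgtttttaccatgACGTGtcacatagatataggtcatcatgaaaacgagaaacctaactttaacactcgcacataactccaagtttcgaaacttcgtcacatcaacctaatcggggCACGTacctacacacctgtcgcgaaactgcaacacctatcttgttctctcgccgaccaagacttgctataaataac
LEA4-5: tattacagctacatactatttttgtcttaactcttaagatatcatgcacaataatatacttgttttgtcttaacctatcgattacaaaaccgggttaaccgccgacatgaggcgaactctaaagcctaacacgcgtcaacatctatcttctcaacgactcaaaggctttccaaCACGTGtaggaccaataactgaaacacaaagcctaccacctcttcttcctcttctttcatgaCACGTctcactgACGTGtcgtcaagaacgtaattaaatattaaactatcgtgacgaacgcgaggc
HAI3: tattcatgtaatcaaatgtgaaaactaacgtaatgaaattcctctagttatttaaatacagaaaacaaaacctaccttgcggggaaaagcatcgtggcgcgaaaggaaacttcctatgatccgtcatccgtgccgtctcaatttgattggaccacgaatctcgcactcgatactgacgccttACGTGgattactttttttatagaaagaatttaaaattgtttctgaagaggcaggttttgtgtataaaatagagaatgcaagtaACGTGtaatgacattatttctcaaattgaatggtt
LTI65: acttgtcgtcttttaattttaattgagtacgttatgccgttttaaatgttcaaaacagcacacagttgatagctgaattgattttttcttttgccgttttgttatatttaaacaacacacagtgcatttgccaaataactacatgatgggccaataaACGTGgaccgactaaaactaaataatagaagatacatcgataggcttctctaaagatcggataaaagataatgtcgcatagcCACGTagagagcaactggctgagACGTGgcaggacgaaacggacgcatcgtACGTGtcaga
RAB18: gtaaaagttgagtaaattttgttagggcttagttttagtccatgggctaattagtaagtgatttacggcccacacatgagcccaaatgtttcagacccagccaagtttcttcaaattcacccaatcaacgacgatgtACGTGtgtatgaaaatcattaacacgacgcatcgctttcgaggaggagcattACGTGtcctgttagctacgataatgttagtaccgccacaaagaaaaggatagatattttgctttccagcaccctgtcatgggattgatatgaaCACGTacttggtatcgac
MYB41: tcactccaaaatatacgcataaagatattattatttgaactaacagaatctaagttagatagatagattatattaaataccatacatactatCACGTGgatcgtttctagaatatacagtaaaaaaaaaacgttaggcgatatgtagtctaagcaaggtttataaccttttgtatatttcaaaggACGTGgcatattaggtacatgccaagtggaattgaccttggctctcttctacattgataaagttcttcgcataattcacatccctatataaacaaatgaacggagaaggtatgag
BGLU24: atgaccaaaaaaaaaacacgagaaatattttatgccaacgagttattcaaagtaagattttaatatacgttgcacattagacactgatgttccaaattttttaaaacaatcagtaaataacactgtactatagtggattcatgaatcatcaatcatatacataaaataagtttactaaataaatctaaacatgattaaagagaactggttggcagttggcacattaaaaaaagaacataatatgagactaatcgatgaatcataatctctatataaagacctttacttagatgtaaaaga
TSPO: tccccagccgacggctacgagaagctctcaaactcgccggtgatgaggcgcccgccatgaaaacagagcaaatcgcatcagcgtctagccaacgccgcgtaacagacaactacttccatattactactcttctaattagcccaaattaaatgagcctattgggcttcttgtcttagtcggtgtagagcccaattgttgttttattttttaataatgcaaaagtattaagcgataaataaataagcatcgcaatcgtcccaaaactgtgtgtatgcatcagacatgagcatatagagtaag
PYL6: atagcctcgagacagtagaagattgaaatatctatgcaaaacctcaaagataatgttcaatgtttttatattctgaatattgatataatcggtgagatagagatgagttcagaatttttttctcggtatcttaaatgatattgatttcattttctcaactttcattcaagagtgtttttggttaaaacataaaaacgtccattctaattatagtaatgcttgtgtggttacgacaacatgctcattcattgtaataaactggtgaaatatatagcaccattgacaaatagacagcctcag
The windows are chr1:19619424-19619723 (plus strand) for LEA7, chr5:2090431-2090730 (minus) for LEA4-5, chr2:12608375-12608674 (plus) for HAI3, chr5:21236721-21237020 (plus) for LTI65, chr5:26519448-26519747 (minus) for RAB18, chr4:13969526-13969825 (minus) for MYB41, chr5:10484074-10484373 (minus) for BGLU24, chr2:19568164-19568463 (plus) for TSPO and chr2:16846195-16846494 (minus) for PYL6, from RefSeq TAIR10.1. The core was present at 4 sites in LEA7 and LTI65, at 3 in LEA4-5 and RAB18, at 2 in HAI3 and MYB41, and at none in BGLU24, TSPO and PYL6. Overlapping matches on the 2 strands were counted as 1 site, and the G-box CACGTG contains the core, as in the LEA7 site that begins 218 bases before the start. The window of CYP707A1 held 1 site and that of PYL4 none.

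Across all genes the core was more frequent the larger the increase. It stood in 53.2% of the 325 windows of genes at least 10-fold higher, in 40.5% of the 1849 nuclear genes at least 2-fold higher, and in 29.9% of the 2999 that rose less than 2-fold. Genes not called had it in 25.1%, genes under 2-fold lower in 21.7% and genes at least 2-fold lower in 25.6%, against 26.7% of the 20800 nuclear genes tested and 25.6% of the 27443 protein-coding genes of the annotation. At least 2 sites were found in 28.9% of the genes 10-fold higher and in 6.52% of all tested. The G-box, CACGTG, followed the same order with 24.6% of genes 10-fold higher and 7.97% of all tested. A match describes these letters in this window, and binding was not measured.

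**Figure D3:**
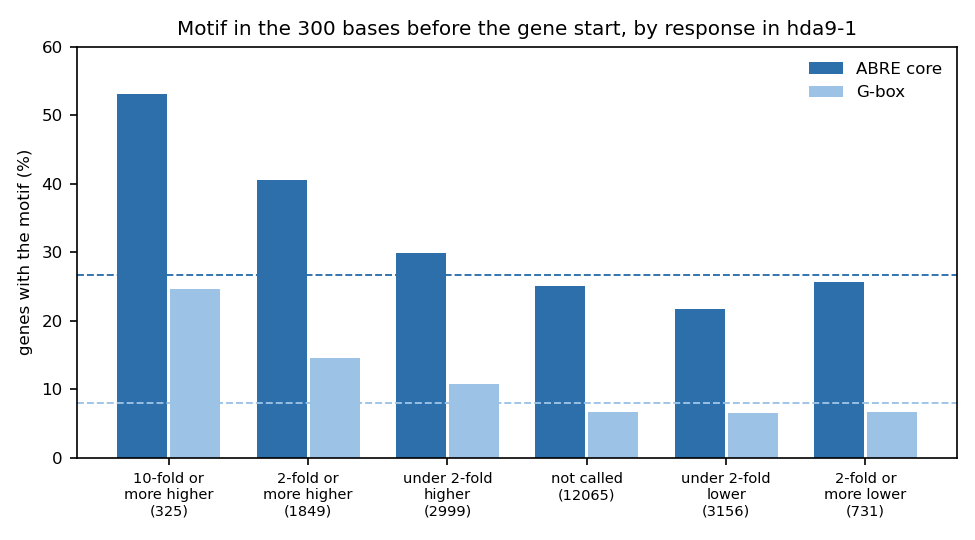
Share of genes, in percent, whose 300 bases before the gene start hold the ABRE core or the G-box, by response in hda9-1, with the number of genes under each pair of bars. Dashed lines give the shares among all nuclear genes tested, 26.7% and 7.97%; the bars fall from 53.2% and 24.6% at 10-fold or more to near the lines for genes that did not pass.

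Genes for water-proofing lipids were mostly higher. Suberin is the polyester of root barriers and wound tissue, and all 16 of its genes that were examined rose, with a median log2 change of 3.42. This list was put together after values of these data had been seen, so its count is a description. MYB41 (AT4G28110, chromosome 4), a factor able to switch on suberin synthesis, read 0.0827, 0.046 and 0.0401 CPM untreated and 8.01, 6.54 and 7.61 CPM after ABA, 6.97 ± 0.38 log2 higher (edgeR adjusted p = 7.5e-10). GPAT7 (AT5G06090), a glycerol acyltransferase, went from 0.62, 0.621 and 0.161 CPM to 54.9, 46.9 and 39.5 CPM, by 6.67 ± 0.27. Treated and untreated libraries did not overlap in either. The transporter ABCG6 (AT5G13580) rose by 5.01 ± 0.29, GPAT5 (AT3G11430) by 4.38 ± 0.18, the elongase KCS2 (AT1G04220) by 4.34 ± 0.14, the hydroxylase CYP86B1 (AT5G23190) by 4.18 ± 0.18 and the feruloyl transferase RWP1 (AT5G41040) by 3.87 ± 0.24. The smallest rise was 0.89 ± 0.10, for KCS20 (AT5G43760). With the trends removed all 16 were still called higher, with a median of 3.27.

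Cuticular wax genes moved less, with 8 of 12 higher, 1 lower and a median of 0.71. MYB96 (AT5G62470), the ABA-linked activator of wax synthesis, rose from 10.5, 11.7 and 9.67 CPM to 65.1, 64.1 and 57.4 CPM, by 2.55 ± 0.13 log2. Its alkane-forming target CER1 (AT1G02205) rose from 35.2, 30.1 and 41.8 CPM to 183, 314 and 306 CPM, by 2.91 ± 0.23, and the condensing enzyme KCS6 (AT1G68530) by 1.44 ± 0.15. MYB30 (AT3G28910), another wax regulator, fell by 0.85 on the log2 scale, with 37.2 to 40.2 CPM before and 16.7 to 25.5 CPM after. Of 13 lipid transfer and EARLI1-type genes, 7 were higher and 2 lower, led by LTP4 and LTP3 at 7.33 and 5.43 (6.92 and 4.79 with the trends removed) and, downward, by AT4G12500 at -2.86.

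Enzymes of compatible solutes rose in part. In a list of 11 genes for galactinol, raffinose and proline, 7 were higher and 2 lower. GolS4 (AT1G60470), galactinol synthase, went from 1.45, 0.896 and 1.18 CPM to 28.2, 22.3 and 27.2 CPM, 4.45 ± 0.20 log2 higher. P5CS1 (AT2G39800), the rate-limiting enzyme of proline synthesis, rose by 2.34 ± 0.24, and ERD5 (AT3G30775), proline dehydrogenase of the opposite reaction, fell by 0.72 on the log2 scale. Sugar carriers went both ways, with 11 of 19 higher and 4 lower. SAG29 (AT5G13170, a SWEET carrier), SWEET13 (AT5G50800), SWEET4 (AT3G28007) and ESL1 (AT1G08920) rose by 2.90, 3.76, 3.26 and 2.67, while the hexose importer STP1 (AT1G11260) had 915, 887 and 793 CPM before and 495, 427 and 285 CPM after. STP1 was among the 8 largest losses in CPM, together with the dark-inducible DIN10 (AT5G20250), carbonic anhydrase CA2 (AT5G14740), the beta-galactosidases BGAL1 (AT3G13750) and BGAL4 (AT5G56870), the chloroplast RNA-binding protein CP29 (AT3G53460), AT5G40450 and the chaperonin CPN60B (AT1G55490). DIN10 read 1950, 2050 and 1760 CPM untreated and 1050, 809 and 610 CPM after ABA, a log2 change of -1.22 ± 0.20. Its annotated product is a raffinose synthase family protein, but the list of 11 genes above does not hold it. This gene thus moved against the rise of most of that list. Among starch breakdown genes 4 of 13 were higher (30.8%) and 2 lower (15.4%), near the shares of all genes tested, 23.3% and 18.6%. In that list BAM1 (AT3G23920), a beta-amylase, rose by 1.93 ± 0.10 and AMY3 (AT1G69830), an alpha-amylase, fell by 0.47 on the log2 scale.

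**Figure D4:**
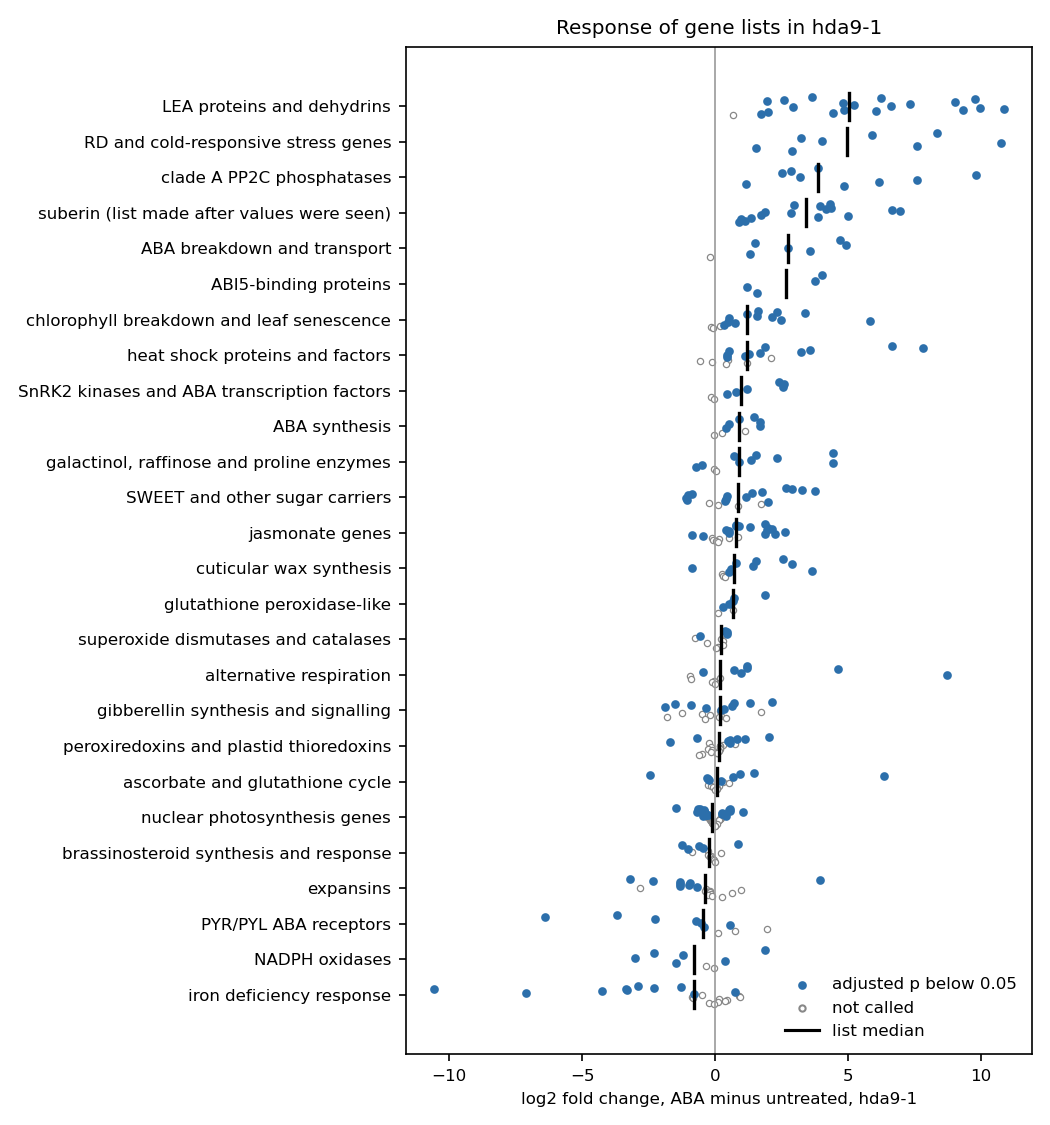
Log2 fold changes (ABA minus untreated, hda9-1) of every tested member of 26 gene lists, ordered by the list median (black bar), filled where the adjusted p was below 0.05. LEA genes have the highest median, 5.04, and the iron deficiency and NADPH oxidase lists the lowest, -0.78; points of genes with 0 counts in a group depend on the fit and are given as bounds in the text.

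NAC and MYB factors were more often higher than lower. Of 75 NAC genes tested, 30 were higher and 3 lower, and of 96 MYB genes 41 were higher and 11 lower, against 23.3% and 18.6% of all genes. NAC019 (AT1G52890) rose by 6.96 and ANAC087 (AT5G18270) by 2.82. MYB102 (AT4G21440), MYB74 (AT4G05100) and MYB9 (AT5G16770) rose by 5.46, 4.13 and 4.00. WRKY factors, with 17 higher and 13 lower of 64, and ERF factors, with 5 and 3 of 23, were near the shares of all genes, and with the trends removed they stood at 15 and 15 and at 3 and 4. In HD-Zip class I, 6 of 15 were higher and 2 lower, and 6 and 4 with the trends removed. HB-7 (AT2G46680) and HB-12 (AT3G61890), both known as factors of water deficit, went from 16.1 to 17.9 CPM up to 276 to 317 CPM and from 4.94 to 6.78 CPM up to 57.2 to 73.5 CPM, rises of 4.12 ± 0.11 and 3.50 ± 0.16 log2. Of 17 heat shock proteins and factors, 11 were higher and none was lower. HSFA6B (AT3G22830), a heat shock factor placed downstream of ABA, had 0.661, 0.735 and 0.642 CPM before and 71.7, 72.3 and 60.7 CPM after, 6.65 ± 0.22 log2 higher. Chaperones moved less, with HSP70 (AT3G12580) at 1.87 ± 0.11 and HSP101 (AT1G74310) at 0.52 ± 0.10.

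Chlorophyll breakdown and senescence genes were higher in 12 of 15 cases, with a median of 1.21 and none lower. With the trends removed 11 were higher and 2 lower, NAC3 (AT3G29035) at -0.51 and SEN1 (AT4G35770) at -0.47. NYE1 (AT4G22920), which removes magnesium from chlorophyll, rose from 11.7, 8.3 and 8.49 CPM to 28.3, 29.8 and 26.3 CPM, by 1.57 ± 0.14 log2. The pheophorbide oxygenase ACD1 (AT3G44880) and the pheophytinase PPH (AT5G13800) rose by 1.63 ± 0.10 and 1.21 ± 0.10, and the senescence factors NAC6 (AT5G39610) and NAP (AT1G69490) by 2.35 ± 0.14 and 2.14 ± 0.29. SAG13 (AT2G29350) was uneven among treated libraries, at 6.34, 2.57 and 8.45 CPM.

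Other hormone lists were mixed. Of 23 jasmonate genes, 14 were higher and 2 lower, and 10 and 2 with the trends removed. JAZ1 (AT1G19180), a repressor of jasmonate signalling, rose from 4.05, 4.62 and 3.59 CPM to 17.2, 13.2 and 14.7 CPM, by 1.88 ± 0.16 log2, and the synthesis enzymes AOS (AT5G42650) and LOX2 (AT3G45140) by 1.33 ± 0.23 and 1.96 ± 0.42. Gibberellin genes, 6 higher (30%) and 4 lower (20%) of 20, were near the shares of all genes tested, 23.3% and 18.6%. GA2OX6 (AT1G02400), which inactivates gibberellin, rose by 2.16 ± 0.16, and so did GA3OX1 (AT1G15550), which makes the active form, by 1.33 ± 0.14. GA20OX2 (AT5G51810) fell by 0.92 on the log2 scale. Of 14 brassinosteroid genes 4 were lower (28.6%) and 1 was higher (7.14%). DWF1 (AT3G19820) and DWF5 (AT1G50430) of the sterol route were lower by 0.62 and 0.44 log2 and BAS1 (AT2G26710), which inactivates the hormone, by 1.23.

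The redox systems named in the study's title responded unevenly. Alternative respiration, the mitochondrial bypass of the cytochrome route, had 6 of 13 genes higher (46.2%) and 1 lower (7.69%). Of all genes tested, 23.3% were higher and 18.6% lower. AOX1A (AT3G22370), the main alternative oxidase, went from 40.5, 54.1 and 55.5 CPM to 84.1, 84.3 and 79.2 CPM, a rise of 0.72 ± 0.14 log2 (edgeR adjusted p = 0.00082) without overlap. Its partners NDB2 (AT4G05020) and NDA2 (AT2G29990), alternative NADH dehydrogenases, rose by 1.21 ± 0.08 and 1.19 ± 0.14, and NDB1 (AT4G28220) fell by 0.45 on the log2 scale. AOX1D (AT1G32350) had 0 untreated counts and 150 treated ones, at least 51.3-fold higher over the group, but the treated libraries read 1.18, 0.0405 and 2.14 CPM, with replicate 2 near 0.

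NADPH oxidases, which make apoplastic superoxide, fell more often than they rose, with 4 of 8 lower (50%) and 2 higher (25%). Of all genes tested, 18.6% were lower and 23.3% higher. RBOHB (AT1G09090) had 11.4, 15.7 and 9.45 CPM before and 1.41, 1.96 and 1.12 CPM after, a log2 change of -3.01 ± 0.28 (edgeR adjusted p = 8.2e-07). RBOHD (AT5G47910), the oxidase of stress and immune bursts, had 50.5, 63.9 and 49.7 CPM before and 22.5, 25.4 and 22.8 CPM after, -1.21 ± 0.11. Groups were apart in both. AT1G19230 rose by 1.87 ± 0.13 and RBOH F (AT1G64060), which acts in guard cells, by 0.39 ± 0.11. RBOH F did not pass without untreated replicate 3 or treated replicate 2, at 0.33 and 0.24.

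Scavenging enzymes moved in both directions. Of 11 superoxide dismutases and catalases, 3 were higher (27.3%) and 1 lower (9.09%), and 2 and 2 with the trends removed. CAT3 (AT1G20620), a catalase, had 3590, 3240 and 3010 CPM before and 4170, 4830 and 4530 CPM after, a rise of 0.46 ± 0.11 log2, while the catalases CAT1 (AT1G20630) and CAT2 (AT4G35090) gave 0.22 ± 0.11 and 0.02 ± 0.15 and were not called. The copper-zinc dismutase CSD2 (AT2G28190) ranged from 143 to 294 CPM untreated and from 167 to 391 CPM treated. Of 19 genes of the ascorbate and glutathione cycle 5 were higher (26.3%) and 4 lower (21.1%), near the shares of all genes tested, 23.3% and 18.6%. APX2 (AT3G09640), a cytosolic ascorbate peroxidase, read 0, 0.046 and 0 CPM untreated and 1.06, 1.34 and 1.74 CPM after ABA, a ratio of 98 with a 95% Poisson interval of 26.8 to 815 that rests on 2 untreated counts. DHAR1 (AT1G19570), dehydroascorbate reductase, rose by 1.46 ± 0.13 and the cytosolic glutathione reductase GR1 (AT3G24170) by 0.94 ± 0.09, and MDHAR (AT3G09940), a monodehydroascorbate reductase, fell by 2.43 on the log2 scale.

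Counts of thiol peroxidases and thioredoxins changed when the length and GC trends were removed. Of 7 glutathione peroxidase-like genes 5 were higher and none lower, and with the trends removed 3 were higher and 1 lower. GPX2 (AT2G31570) kept its rise, with 88.8, 94 and 72.9 CPM before and 369, 269 and 302 CPM after, 1.88 ± 0.14 log2 as counted and 1.23 with the trends removed. Of 24 peroxiredoxins and thioredoxins 6 were higher (25%) and 2 lower (8.33%), against 23.3% and 18.6% of all genes. These counts became 5 and 7 with the trends removed, where 4008 of all 20924 genes were higher and 5074 lower. The cytosolic thioredoxins TRX5 (AT1G45145) and TRX3 (AT5G42980) rose by 2.04 ± 0.22 and 1.13 ± 0.18 as counted and by 1.33 and 0.58 with the trends removed. TRX5 read 171, 94.3 and 129 CPM in treated replicates 1 to 3 against 28.2 to 35.6 CPM untreated. The plastid reductase NTRC (AT2G41680) fell by 0.66 on the log2 scale.

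Genes of the iron deficiency list fell more often than they rose. Of 21 genes 9 were lower and 1 higher, with a median of -0.78 that stayed the same with genes at 0 set to their bound. The list is not made of uptake genes alone. It also holds regulators and the ferritin genes FER3, FER4 and FER1, which gave -0.96, -0.68 and 0.23 log2 with the trends removed. IRT1 (AT4G19690, chromosome 4, 10707344 to 10709015), the root iron transporter, read 77, 185 and 135 CPM untreated and 14.3, 17.8 and 7.06 CPM after ABA, a log2 change of -3.34 ± 0.42 (edgeR adjusted p = 0.00021). FRO2 (AT1G01580), the ferric reductase that works with it, read 94.8, 241 and 148 CPM and then 15.6, 22.8 and 9.48 CPM, -3.33 ± 0.43. Untreated replicate 2 was the highest for both, and no treated library reached the lowest untreated one. Their regulator FIT, listed as FRU (AT2G28160), changed by -2.28 ± 0.25, and CYP82C4 (AT4G31940) and AT3G13610, of coumarin synthesis, by -4.25 ± 0.57 and -2.90 ± 0.22. AT3G12900, also of that route, had 553 untreated counts and 0 treated ones, at least 180-fold lower. The Ib bHLH factors that partner FIT, bHLH38, bHLH39, BHLH100 and BHLH101, gave 0.94, -0.88, -0.23 and -0.83 and did not pass, and PYE (AT3G47640) rose by 0.74 ± 0.15. Beside this, the summed level of 18 root marker genes, IRT1 among them, went from 253, 338 and 270 CPM to 158, 163 and 127 CPM, with 3 members higher and 6 lower and none at 0 in all hda9-1 libraries. IRT1 carried most of that drop, since the other 17 markers summed to 176, 153 and 135 CPM before and 144, 145 and 120 CPM after, with overlap between the groups.

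Cell wall loosening genes fell too. Of 20 expansins 8 were lower and 1 was higher, and 12 and 1 with the trends removed. EXPA1 (AT1G69530) moved by -3.19 and EXPA8 (AT2G40610) by -2.34, whereas EXPA16 (AT3G55500) rose by 3.96. Xyloglucan enzymes (XTH) were near the shares of all genes, with 9 of 30 higher (30%) and 7 lower (23.3%), and 6 and 8 with the trends removed, XTH25 (AT5G57550) at 2.72 and XTH31 (AT3G44990) at -2.28. Other large decreases were AT1G05700, a leucine-rich repeat receptor kinase gene, with 9.48, 9.47 and 7.71 CPM before and 0, 0.425 and 0.309 CPM after, AT3G20380, a TRAF-like gene, at -4.03, AT3G23510, a cyclopropane fatty acid synthase gene, at -4.17, AT3G01260, AT5G19890, AT1G30760 and AT5G63180, at -3.98, -3.76, -3.53 and -3.23. These are genes of sugar, peroxidase, FAD-linked oxidase and pectin enzymes.

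The counts of some lists depended strongly on the removal of the trends or on ABA replicate 2. Of 298 genes whose product names a ribosomal protein outside the organelles, 16 were higher (5.37%) and 41 lower (13.8%). Both shares lay below those of all genes tested, 23.3% and 18.6%. The counts became 5 and 174 with the trends removed and 88 and 28 without ABA replicate 2. Nuclear photosynthesis genes were more often lower in both fits, with 8 higher and 13 lower of 46, and 2 and 21 with the trends removed; RBCS1B (AT5G38430), a Rubisco small subunit with near-identical paralogs, changed by -1.46. SAUR genes, short genes of auxin response, were 10 higher (15.9%) and 7 lower (11.1%) of 63, and turned to 7 and 26 with the trends removed. Mitotic genes were 2 higher (8.7%) and 5 lower (21.7%) of 23 as counted, and 2 and 12 with the trends removed. The cyclin-dependent kinase inhibitor ICK1 (AT2G23430) was higher by 1.13. For chloroplast-encoded genes 21 of 78 were called higher (26.9%, against 23.3% of all genes tested). The plastid share of counts was only 0.0756 to 0.14% in these poly(A) libraries, and 5 of the 21 held in every fit that left out 1 library.

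Histone deacetylases other than HDA9 changed by less than 2-fold. Of the 16 genes of that list, HDA9 and its partners included, 5 were lower (31.2%) and 2 higher (12.5%). Of all genes tested, 18.6% were lower and 23.3% higher. HD1 (AT4G38130, HDA19), HDA15 (AT3G18520) and HD2C (AT5G03740) changed by -0.37, -0.36 and -0.49 log2, HDA2 (AT5G26040) and the sirtuin SRT2 (AT5G09230) by 0.44 and 0.49, and the HDA9 partner HOS15 (AT5G67320) by -0.03 ± 0.08. Clock genes, relevant since the groups are 4 h apart, were 5 higher and 4 lower of 17, near the shares of all genes. CCA1 (AT2G46830), a morning gene, read 3.99, 3.06 and 5.06 CPM and then 8.38, 12 and 10.2 CPM, a rise of 1.34 ± 0.18, ELF3 (AT2G25930) fell by 0.65 on the log2 scale, and TOC1 (AT5G61380) and GI (AT1G22770) gave -0.32 ± 0.13 and -0.13 ± 0.11 without passing. What elapsed time contributes was not tested. Markers of guard cells summed to 129 to 144 CPM untreated and 131 to 145 CPM treated, but single members moved both ways. Of 11 guard cell markers tested, 5 were lower, 3 of them at least 2-fold, and 2 were higher, both at least 2-fold. Floral and seed markers summed to at most 10.6 and 4.07 CPM.

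The hda9-1 response was then set against that of wild type by the interaction of genotype and treatment. No gene passed an adjusted p below 0.05 by edgeR (0%), with 2467 genes at an unadjusted p below 0.05 and a smallest adjusted p of 0.056. limma-voom called 0 and DESeq2 called 123. Without ABA-treated hda9-1 replicate 2 edgeR called 1612 genes, 1052 with a response above and 560 below that of wild type. The median exon length was 926 nt in the former and 2717 nt in the latter, and with the trends also removed 186 genes were called, 155 of them among the 1612. Of the 1861 genes at least 2-fold higher in hda9-1, 1163 (62.5%) were also 2-fold higher in wild type, which is 89.6% of the 1298 there (6.2% of all tested). Of the 731 genes at least 2-fold lower, 458 were shared, 62.7% of the hda9-1 set and 61.1% of the 750 in wild type (3.58% of all tested). These sets are as counted, and with the trends removed the hda9-1 sets held 1469 and 1007 genes.

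ABCG10 (AT1G53270), a half-size transporter of the suberin list, had the smallest p of the interaction among all genes tested. It rose by 3.96 ± 0.16 log2 in hda9-1 and by 2.48 in wild type (edgeR unadjusted p = 2.7e-06, adjusted p = 0.056). Its hda9-1 libraries read 1.67, 1.4 and 1.63 CPM and then 26.3, 26.2 and 20.9 CPM. For GPAT7 the rises were 6.67 and 4.40 (unadjusted p = 1.8e-05 by edgeR), and for FAR4 (AT3G44540), which makes fatty alcohols, 2.97 and 2.24. All 16 suberin genes had the larger estimate in hda9-1, and none passed. The estimate was larger in hda9-1 for 53.2% of all tested genes and 64.7% of the genes 2-fold higher in wild type. Since the suberin list was made after values of these data had been seen, its count is a description only. For 4 genes picked from the ABA lists the estimates were close, with ABI1 at 2.86 and 2.90, ABF3 at 2.4 and 2.4, PYL4 at -3.68 and -3.50 and NCED3 at 1.71 and 1.7 log2 in hda9-1 and wild type. List medians, in the same order, were -0.47 and -0.56 for receptors, 3.86 and 3.94 for phosphatases, and 0.99 and 1.03 for kinases and factors. They were 2.68 and 2.34 for ABI5-binding proteins, 0.89 and 0.84 for synthesis, and 2.76 and 2.08 for breakdown and transport. HAI3 was at 9.83 and 7.28, but its treated means were alike, at 28.1 and 27.6 CPM. Its untreated means were near 0 in both, at 0.0287 and 0.179 CPM, and the interaction did not pass (edgeR adjusted p = 0.25).

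**Figure D5:**
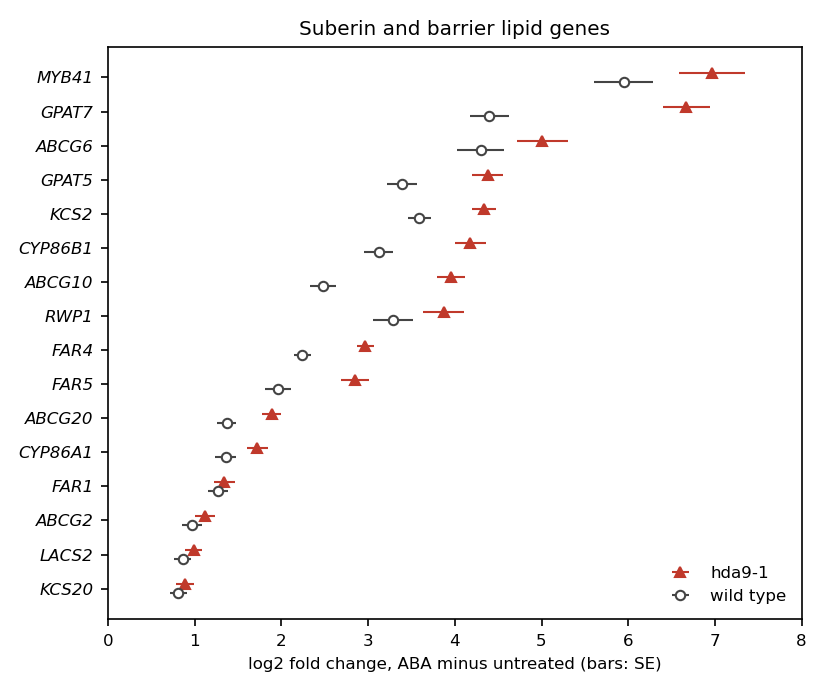
Log2 fold change after ABA, with its standard error, of 16 suberin and barrier lipid genes in hda9-1 (triangles) and wild type (open circles), ordered by the hda9-1 value. Triangles lie to the right for all 16 genes, from 0.89 for KCS20 to 6.97 for MYB41, and no difference passed adjustment. The list was made after values of these data had been seen.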

How the data were processed

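Gene-level read counts were deposited by the authors as whole numbers for 12 libraries, and no normalised values were used. Per the labels' protocols, poly(A) RNA from 1 µg of total RNA went into a directional kit with 7 PCR cycles and was read in 75 bp reads. Per the submitters' processing notes, Bowtie2, Salmon, limma 3.56 and the TAIR10 genome were used. Which of these tools made the counts, and whether strand was used in counting, is not given in the sources used here, so reads of overlapping or antisense genes and of near-identical copies may be shared.

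Groups came from titles and column names. Genes were filtered with filterByExpr (minimum count 10, minimum total 15), which kept 20924 of 23911, scaled by TMM and fitted in 1 model of 4 groups over 12 libraries with edgeR 4.0.16 (R 4.3.3), using robust quasi-likelihood fits and two-sided tests with Benjamini-Hochberg adjustment. Standard errors were derived from the fold change and its F statistic. limma 3.58.1, DESeq2 1.42.0, other scalings and filters, a replicate block, libraries left out in turn and a correction, library by library, for the dependence of log counts on exon length and GC (splines with 4 degrees of freedom, entered as offsets and called trends removed in the text) were the alternatives. The fit was tested on simulated counts, where 89.6% of genes changed 2-fold in the hda9-1 response were recovered. For a response that differed 2-fold between genotypes 74.6% were recovered. At 1.5-fold the shares were 62.7% and 17.9%. The changed genes all had a mean of at least 5 CPM, so these shares do not cover genes below that level. The simulated counts were drawn around 1 mean per gene, without the length tilt of the real libraries, so these shares may not carry over to the real data.

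Named genes are HDA9, the 12 largest increases and decreases by fold among genes without overlap and with at least 5 CPM, the 8 largest gains and losses in CPM, and members of each list by smallest p, with further members of lists of up to 25. Genes named outside this rule in the larger lists were chosen after their values were seen. Members and lists were chosen with earlier results of these data known, and the suberin list after its values were seen. Names, coordinates and promoter windows came from RefSeq TAIR10.1. Intervals and floors of 3 counts over a group cover counting error only. Figures were drawn with matplotlib 3.10.9.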

Additional observations from a re-analysis of the deposited data

How the results depend on the processing

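The count of genes called in hda9-1 was within 1.5 times of 8767 under every scaling, filter and tool tried, and ranged from 7300 to 9572 when 1 library was left out. The share of higher calls moved from 55.6% to 47.0% with upper-quartile factors (4298 higher, 4855 lower) and to 44.1% with the length and GC trends removed. At an adjusted p below 0.01, 2448 genes were lower. The difference from wild type was the least stable count: 0 genes were called as reported, 1 with upper-quartile factors, with library size alone and without a filter, 123 with DESeq2, 2 with the trends removed, 186 with the trends removed and without ABA-treated hda9-1 replicate 2, and 0 to 1612 with 1 library left out. Leaving out that library together with wild-type ABA replicate 3, an alternative chosen after seeing the data, gave 1203. The cause was not tested.

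Pairing by replicate number was not clear. Between untreated and treated hda9-1 the deviations of samples with the same number correlated at 0.021, -0.099 and 0.261 for replicates 1 to 3. Samples with other numbers gave -0.254 to 0.205, -0.035 to 0.157 and -0.134 to -0.117. Only replicate 3 thus lay above the range of other numbers, and 3 libraries per group are too few to settle pairing. With the replicate block 8458 genes were called, 4717 higher and 3741 lower, and 0 for the difference.

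Of 193 genes followed across the settings, those whose sign turned had small changes in the fit reported above. Some of them, such as BHLH100, varied widely when 1 library was left out. With the trends removed, RCAR1 gave -0.34, ABCG40 0.06, GI 0.06, ABA4 -0.03, CSD2 -0.15 and HOS15 0.02, and in the same fit with the replicate block -0.34, 0.04, 0.06, -0.03, -0.22 and 0.02. Without ABA-treated replicate 2 as well, RCAR1 gave -0.37, ABCG40 0.31, ABA4 -0.05, CSD2 -0.05 and HOS15 0.05. With the trends removed in the hda9-1 libraries alone, chosen after seeing the data, RCAR1 gave -0.34, ABCG40 0.07, GI 0.06, ABA4 -0.04, CSD2 -0.14 and HOS15 0.01. CAT2 (AT4G35090) gave -0.01 with RLE factors, DESeq2 and hda9-1 libraries alone, -0.05 with upper-quartile factors, -0.02 with library size alone and 0 with the 1 CPM filter. BHLH100 gave 0.13 with limma-voom. With 1 library left out in turn, values ranged from -0.36 to 0.36 for CSD2, from -0.64 to 0.89 for BHLH100, from -0.19 to 0.14 for CAT2, from -0.12 to 0.03 for HOS15, from -0.18 to 0.03 for NAC3, from -0.38 to 0.02 for SEN1 and from -0.36 to 0.02 for ABCG40. Leaving out both ABA libraries named above gave 0.02 for ABCG40, 0.01 for SEN1 and -0.04 for CAT2. Of these genes only ABA4 had been called.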
